A study of Mus musculus with 24 samples.

Results

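The genes described here were the neurotrophin ligands Bdnf and Ntf3, the receptor tyrosine kinases Ntrk2 and Ntrk3, the receptor Ngfr and the sorting receptor Sort1. They are 6 of the 55385 genes in the count table and were chosen by name, through their Ensembl identifiers, over all 24 libraries. RNA-Seq was performed on the hippocampus (HIP) and the entorhinal cortex (EC) of 6 male Ts65Dn mice and 6 male wild-type (wt) littermates aged 5 to 6 months, so that each mouse gave 1 library per region. Ts65Dn mice are a model of Down syndrome. They carry a minichromosome that joins an extra copy of a segment of mouse chromosome 16 to an extra copy of a proximal part of chromosome 17, and the genes of the latter have no counterpart on the human chromosome involved. The mice were kept on an F1 B6C3B background. The 6 genes lie on chromosomes 2, 6, 13, 7, 11 and 3, outside both extra segments.

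Neurotrophins are secreted growth factors that are made as longer precursors and cleaved by proprotein convertases. Mature BDNF signals mainly through the kinase TrkB, encoded by Ntrk2, and mature NT-3 mainly through TrkC, encoded by Ntrk3. The receptor p75NTR, encoded by Ngfr, binds all neurotrophins with low affinity and binds their precursors tightly together with sortilin, the product of Sort1. Sortilin also sorts the BDNF precursor within neurons. In the adult brain this system is known for its part in synaptic plasticity, dendrite growth and memory, and Bdnf is transcribed from several promoters in response to neuronal activity.

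The libraries held between 23128589 and 40476492 counts. Over the genes tested between Mrpl39 and Zbtb21 on chromosome 16, the median ratio to the wt mean was 1.44 to 1.54 in 5 Ts65Dn HIP libraries and 1.47 to 1.54 in 5 Ts65Dn EC libraries. In both libraries labelled Ts65Dn replicate 3 it was 1.02 (HIP) and 1.0 (EC), close to the 0.98 to 1.01 of the wt libraries. Over the genes of the extra part of chromosome 17, these libraries of replicate 3 were at 1.01 (HIP) and 0.961 (EC). The other Ts65Dn libraries were there at 1.37 to 1.51 in HIP and 1.41 to 1.51 in EC. The genotype calls of the 6 genes, and some of their differences, are therefore given with and without that mouse. The 5 dentate granule cell markers were all higher in HIP, with a summed level of 299 to 513 CPM (counts scaled to the size of the library) against 14.4 to 18.1 in EC, and 6 of 7 cortical neuron markers were lower in HIP. All 5 oligodendrocyte markers (summed level 6310 to 9920 CPM in HIP and 1260 to 2660 in EC) and all 4 choroid plexus markers (50.8 to 5040 CPM in HIP and 8.04 to 48.9 in EC) were higher in HIP. Their part in the regional differences below was not tested. In such pieces of tissue, fewer cells of a type and less RNA per cell cannot be told apart.

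Among the 6 genes, Sort1 had the highest level per length and Ngfr the lowest in every group. In wt HIP, Sort1 was at 116 ± 5.89 CPM per kilobase of exon (SD, n = 6 in this and all groups below). Ntrk2 followed at 37.3 ± 1.20, Bdnf at 9.53 ± 1.27, Ntrk3 at 9.15 ± 0.885, Ntf3 at 5.06 ± 0.646 and Ngfr at 0.738 ± 0.204. The order was the same in wt EC, with 113 ± 4.0 for Sort1, 55.6 ± 1.79 for Ntrk2, 6.71 ± 1.28 for Bdnf, 6.66 ± 0.768 for Ntrk3, 1.20 ± 0.304 for Ntf3 and 0.254 ± 0.0788 for Ngfr. Bdnf and Ntrk3 differed by less than their spread, and they changed places in the Ts65Dn groups. With the union of exons as length, the other neighbours in this order lay more than their SDs apart. With the longest transcript as length, Sort1 and Ntrk2 lay close together in EC. They were then at 125.6 and 122.8 CPM per kilobase in wt EC and at 116.5 and 115.9 in Ts65Dn EC. Bdnf has 11 annotated transcripts and Ntrk3 has 20, and in the wt groups the pair also changed places when the longest transcript served as length.

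**Figure D1:**
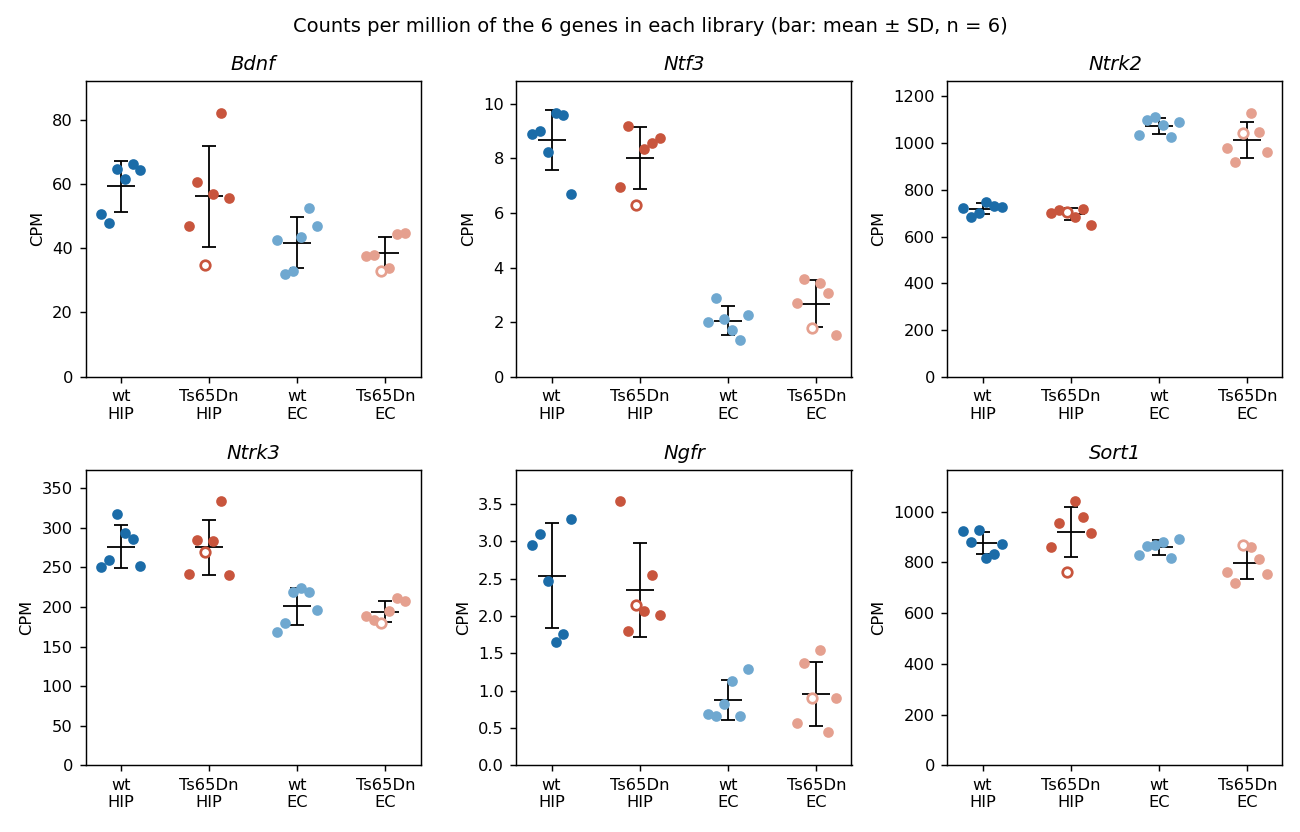
Level of each gene in CPM (vertical axis, from 0) in every library, by genotype and region. Points are libraries, open points are the libraries labelled Ts65Dn replicate 3, and bars are the mean ± SD of 6 libraries. The HIP and EC libraries do not overlap for Ntf3, Ntrk2, Ntrk3 and Ngfr, while the wt and Ts65Dn libraries of a region overlap for every gene.

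All 6 genes differed between HIP and EC within mice (edgeR's quasi-likelihood test with a term for each mouse, Benjamini-Hochberg adjusted over 18109 genes). In this comparison 68.4% of all genes tested passed, so that passing sets the members little apart. The 5 genes higher in HIP were Ntf3, Ngfr, Bdnf, Ntrk3 and Sort1, where 35.5% of all genes were higher. Ntrk2 alone among the 6 was lower, as were 32.9% of all genes. For 4 of the 6 genes every HIP library lay on the same side of every EC library, which 18% of all genes showed. Without the mouse labelled Ts65Dn replicate 3 all 6 genes passed with the same directions, whereas Sort1 did not pass in 7 of the 12 fits without a single mouse or in 3 of 7 other settings. None of the 6 genes passed the test for genotype in HIP, where 1.04% of 17355 genes passed, or in EC, where 2.5% of 17049 genes passed.

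Bdnf (ENSMUSG00000048482, GRCm38 chr2:109674700-109727007, plus strand) encodes brain-derived neurotrophic factor. Its gene count pools all of its promoters, and the RefSeq table used here (GRCm38.p6) holds 7 start sites for it. The 250 bases before each start site were searched on both strands for the cAMP response element TGACGTCA, for its variant TCACGTCA and for the E box CACGTG, none of which holds another. The variant was searched for because it is known to lie before an exon of Bdnf, so its presence was settled by that choice. Of all 32851 windows, 0.35% held it. It stood before 1 of the 7 Bdnf start sites, and the other motifs before none. This window, chr2:109692186-109692435 on the plus strand, lies before the start at position 109692436 and overlaps no annotated exon. It is shown, with the variant element in capitals, because CREB family proteins, which act on Bdnf after neuronal activity, are known to bind elements of this kind:
Bdnf promoter window: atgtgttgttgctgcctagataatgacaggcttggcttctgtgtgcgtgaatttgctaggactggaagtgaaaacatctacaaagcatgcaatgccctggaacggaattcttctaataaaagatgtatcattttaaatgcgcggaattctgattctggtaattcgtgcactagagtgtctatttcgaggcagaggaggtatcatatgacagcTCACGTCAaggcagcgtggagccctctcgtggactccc

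Bdnf was higher in HIP than in EC. In HIP its level was 47.9 CPM at the lowest, 63.0 at the median and 66.2 at the highest in the wt mice, and 34.8, 56.3 and 82.2 CPM in the Ts65Dn mice. In EC the lowest, median and highest were 32.1, 43.0 and 52.5 CPM in wt and 33.1, 37.8 and 44.8 CPM in Ts65Dn mice. All 12 mice had more Bdnf in HIP than in their own EC, by 1.05 to 1.96 times. The libraries of the regions overlapped all the same, with 8 HIP libraries above every EC library. The regional difference was 0.51 on the log2 scale (SE 0.068, 1.43-fold, adjusted p = 3.61e-06). It was 0.51 in the wt mice alone and 0.50 in the Ts65Dn mice alone.

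The Bdnf level of the Ts65Dn HIP libraries had a coefficient of variation of 28%, against 13.3% in wt HIP and 2.49% from counting alone. Its lowest value was the library labelled Ts65Dn replicate 3 and its highest was replicate 5. The genotype difference in HIP was -0.080 (95% interval -0.42 to 0.26, adjusted p = 0.861), and 0.026 (-0.26 to 0.31, adjusted p = 0.945) without the mouse labelled Ts65Dn replicate 3. In EC it was -0.12 (-0.38 to 0.14, adjusted p = 0.650).

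Ntf3 (ENSMUSG00000049107, chr6:126101412-126166910, minus strand), which encodes neurotrophin-3, showed the largest regional difference of the 6 genes. Of its 2 start sites in the RefSeq table, the one at position 126166744 had an E box, a sequence that USF and BHLHE40 proteins are known to bind, in the 250 bases before it, as had 6.02% of all windows. Neither window held a cAMP response element, and TGACGTCA stood in 1.55% of all windows. The 84 bases of that window before any annotated exon, chr6:126166911-126166994 on the minus strand, are given with the E box in capitals for comparison with Bdnf:
Ntf3 promoter window: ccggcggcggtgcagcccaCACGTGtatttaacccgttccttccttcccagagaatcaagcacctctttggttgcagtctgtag

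In HIP the level of Ntf3 was 6.68 CPM at the lowest, 8.94 at the median and 9.67 at the highest in wt, and 6.30, 8.45 and 9.19 in Ts65Dn mice. In EC it was 1.36, 2.07 and 2.89 CPM in wt and 1.55, 2.88 and 3.58 CPM in Ts65Dn mice. Every HIP library was thus above every EC library, and the ratio within mice ran from 2.40 to 6.78. The regional difference was 1.84 (SE 0.13, 3.58-fold, adjusted p = 1.24e-09), and 3.98% of all genes had a larger one in either direction. In the wt mice alone it was 2.07 and in the Ts65Dn mice alone 1.61.

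The genotype difference of Ntf3 was -0.12 in HIP (95% interval -0.36 to 0.12, adjusted p = 0.678) and 0.37 in EC (-0.11 to 0.86, adjusted p = 0.405). Ntf3 counts in EC were low, 37 to 107 per library, and counting alone gave a coefficient of variation of 11.2% to 13.0%, against 25.3% (wt) and 31.8% (Ts65Dn) observed. A fold of up to 1.81 in EC is within this interval. The limit was 1.92-fold without the mouse labelled Ts65Dn replicate 3 (0.47, 95% interval -0.012 to 0.94). The difference between the genotype effects of the regions was -0.47 (95% interval -0.97 to 0.031, adjusted p = 1.0).

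Ntrk2 (ENSMUSG00000055254, chr13:58806569-59133970, plus strand) encodes TrkB, which neurons carry as a full-length kinase and astrocytes mainly as a truncated form. The 10 annotated transcripts were counted together. It was lower in HIP, where the wt libraries ran from 684 through a median of 724 to 750 CPM and the Ts65Dn libraries from 650 through 704 to 719 CPM. In EC they ran from 1027 through 1084 to 1113 CPM in wt and from 917 through 1011 to 1130 CPM in Ts65Dn mice. All 12 HIP libraries were below all 12 EC libraries, with a ratio within mice of 0.607 to 0.778. The difference was -0.56 (SE 0.032, 0.679-fold, adjusted p = 9.94e-11).

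Ntrk2 had the lowest coefficient of variation of the 6 genes in 3 of 4 groups, 3.22% in both wt groups and 3.64% in Ts65Dn HIP. For genotype it gave -0.051 in HIP (95% interval -0.14 to 0.037, adjusted p = 0.603) and -0.093 in EC (-0.20 to 0.018, adjusted p = 0.355). These intervals leave room for a fall to 0.908-fold in HIP and to 0.869-fold in EC. Without the mouse labelled Ts65Dn replicate 3 the limits were 0.904-fold in HIP and 0.861-fold in EC. The 5 astrocyte markers went both ways. Gfap, Aqp4 and Gja1 were higher in HIP, Gfap by 4.70-fold, and Aldh1l1 and Slc1a3 were lower.

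Ntrk3 (ENSMUSG00000059146, chr7:78175959-78738012, minus strand) encodes TrkC, the receptor for the Ntf3 product, and like Ntf3 it was higher in HIP. The HIP libraries ran from 250 through a median of 272 to 317 CPM in wt and from 240 through 276 to 333 CPM in Ts65Dn mice. The EC libraries ran from 168 through 207 to 224 CPM in wt and from 180 through 191 to 211 CPM in Ts65Dn mice. The regions did not overlap, and the ratio within mice was 1.16 to 1.58. The difference was 0.48 (SE 0.038, 1.4-fold, adjusted p = 6.56e-09). The genotype difference was -0.0088 in HIP (95% interval -0.19 to 0.17, adjusted p = 0.98) and -0.059 in EC (-0.22 to 0.099, adjusted p = 0.728). An antisense gene within Ntrk3, Gm9885, held 2905 counts over all libraries against 167986 for Ntrk3, and no exons of the pair overlap.

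Ngfr (ENSMUSG00000000120, chr11:95568818-95587735, minus strand) encodes p75NTR, which the cholinergic neurons of the basal forebrain carry in quantity and most other adult neurons hardly. It was the lowest of the 6 genes, with 48 to 131 counts per HIP library and 11 to 47 per EC library. Its level in HIP was 1.66 CPM at the lowest, 2.71 at the median and 3.31 at the highest in wt, and 1.80, 2.11 and 3.54 CPM in Ts65Dn mice. In EC it was 0.660, 0.754 and 1.30 CPM in wt and 0.454, 0.903 and 1.55 CPM in Ts65Dn mice. The regions did not overlap, and every mouse had more Ngfr in HIP, by 1.30 to 5.62 times. The difference was 1.42 (SE 0.19, 2.68-fold, adjusted p = 5.3e-06).

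Markers of other structures varied widely between the HIP libraries, and their part in the Ngfr difference was not tested. The summed level of the cholinergic markers Chat, Slc18a3 and Slc5a7 was highest, at 25.2 CPM, in wt HIP replicate 4, whose Ngfr level of 1.66 CPM was the lowest in HIP. In the other HIP libraries that sum was 0.56 to 8.86 CPM. The library with 8.86 CPM, Ts65Dn replicate 3, had 2.15 CPM of Ngfr, and wt replicate 5, with 1.01 CPM, had 1.76 CPM. The HIP library with the highest choroid plexus sum, 5040 CPM in Ts65Dn replicate 1, had the highest Ngfr level, 3.54 CPM. The next in that sum, wt replicate 2, had 3.1 CPM of Ngfr. The order did not hold throughout. Ts65Dn replicates 3 and 2, with sums of 3020 and 2350 CPM, had 2.15 and 1.80 CPM of Ngfr. In wt replicate 4, with the lowest Ngfr level in HIP, the sum was 2220 CPM. In wt replicate 6 it was 908 CPM, beside 3.31 CPM of Ngfr. The 3 HIP libraries with the lowest choroid plexus sums, 50.8, 85.5 and 114 CPM, had 2.07, 1.76 and 2.02 CPM of Ngfr. Their within-mouse ratios were 1.32, 2.51 and 2.15. Those sums were above the 8.04 to 48.9 CPM of the EC libraries. In the same 3 mice the ratios were 2.40, 6.78 and 5.45 for Ntf3 and 1.68, 1.26 and 1.24 for Bdnf. The part of the choroid plexus in these values was not tested. The genotype difference of Ngfr was -0.12 in HIP (95% interval -0.57 to 0.33, adjusted p = 0.846) and 0.13 in EC (-0.50 to 0.76, adjusted p = 0.860). The EC interval reaches from 0.709-fold to 1.70-fold, with a coefficient of variation of 31.0% in wt and 45.0% in Ts65Dn mice against 20.1% and 18.6% from counting alone.

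Sort1 (ENSMUSG00000068747, chr3:108284082-108361511, plus strand) encodes sortilin and had the smallest regional difference of the 6 genes. In HIP the wt libraries ran from 818 through a median of 877 to 927 CPM and the Ts65Dn libraries from 762 through 937 to 1040 CPM. In EC they ran from 816 through 868 to 892 CPM in wt and from 717 through 788 to 870 CPM in Ts65Dn mice. The level was higher in HIP in 9 of 12 mice, and 6 HIP libraries lay above every EC library. The difference was 0.12 (SE 0.048, 1.08-fold, adjusted p = 0.0392), and 76.4% of all genes had a larger one. The call did not hold in every setting. In the wt mice alone the difference was 0.024 (95% interval -0.068 to 0.12, adjusted p = 0.632) and in the Ts65Dn mice alone it was 0.20 (0.036 to 0.36, adjusted p = 0.0421). DESeq2 gave an adjusted p of 0.0618, and 5 of 12 fits without a single mouse kept the call, among them that without Ts65Dn replicate 3 (0.14, adjusted p = 0.00863).

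For genotype, Sort1 gave 0.066 in HIP (95% interval -0.082 to 0.21, adjusted p = 0.706) and -0.12 in EC (-0.23 to -0.0061, adjusted p = 0.236). The EC value had an unadjusted edgeR p of 0.0401, and 19% of all genes in EC were under 0.05 before adjustment. The difference between the genotype effects of the regions was 0.18 (-0.0093 to 0.36, adjusted p = 1.0). The lowest Sort1 level in HIP, 762 CPM, and the highest in Ts65Dn EC, 870 CPM, both came from the mouse labelled Ts65Dn replicate 3. Without that mouse the difference between the regions' genotype effects was 0.25 (0.12 to 0.38), with an unadjusted edgeR p of 0.000819 and an adjusted p of 0.682, and it passed in neither case.

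**Figure D2:**
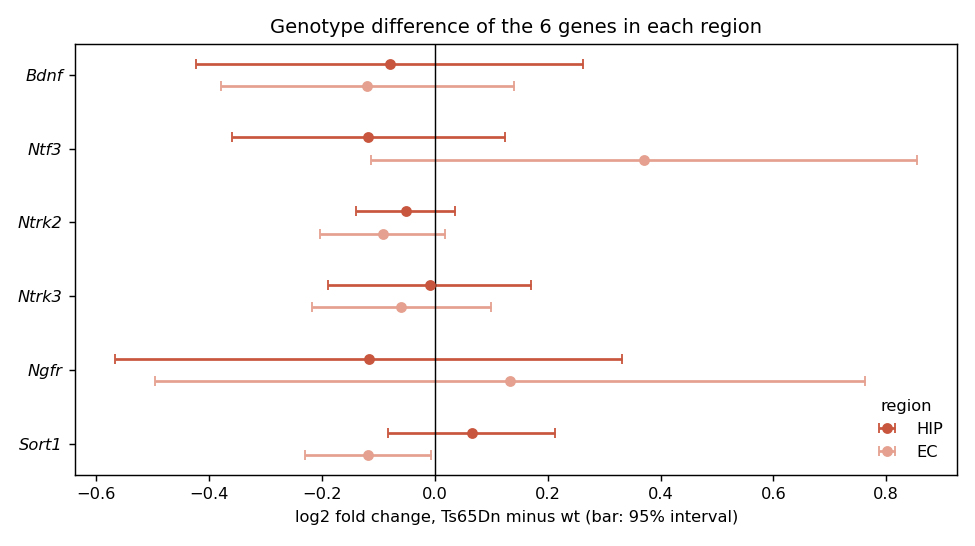
Genotype difference of each gene as log2 fold change, Ts65Dn minus wt (horizontal axis), in HIP and in EC. Points are edgeR estimates from 6 against 6 libraries and bars are 95% intervals. All intervals include 0 except that of Sort1 in EC, which ends at -0.0061.

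Over the 6 genes, the genotype test called 0 in HIP and 0 in EC by edgeR and by DESeq2, with 0 and 1 at an unadjusted edgeR p under 0.05, where 14.8% of all genes in HIP and 19% in EC were under it. Leaving out the mouse labelled Ts65Dn replicate 3 also gave 0 in each region. The differences without it ran from -0.093 (Ngfr) to 0.11 (Sort1, adjusted p = 0.318) in HIP and from -0.14 (Sort1, adjusted p = 0.147) to 0.47 (Ntf3, adjusted p = 0.276) in EC. A test of whether the genotype effect differed between the regions called 0 of the 6 genes, as it did 0% of all 18109 genes by edgeR and none by DESeq2, with 742 genes but none of the 6 at an unadjusted p under 0.05. The widest genotype intervals were those of Ngfr and of Ntf3 in EC, and the narrowest were those of Ntrk2 and Sort1.

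Whether a mouse with a high level in HIP also had a high level in EC was asked for each of the 6 genes over the 12 mice. None of these 6 correlations passed after Benjamini-Hochberg adjustment. The nearest were Ntrk3 (Pearson r = 0.549, permutation p = 0.066, adjusted 0.198; Spearman rho = 0.573, permutation p = 0.0543, adjusted 0.241) and Bdnf (r = 0.542, permutation p = 0.0649, adjusted 0.198; rho = 0.531, permutation p = 0.0804, adjusted 0.241). Without the 2 mice farthest from the HIP median, r was 0.696 for Ntrk3 and 0.421 for Bdnf. Within the wt and the Ts65Dn mice, r was 0.843 and 0.260 for Ntrk3 and 0.50 and 0.688 for Bdnf.

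**Figure D3:**
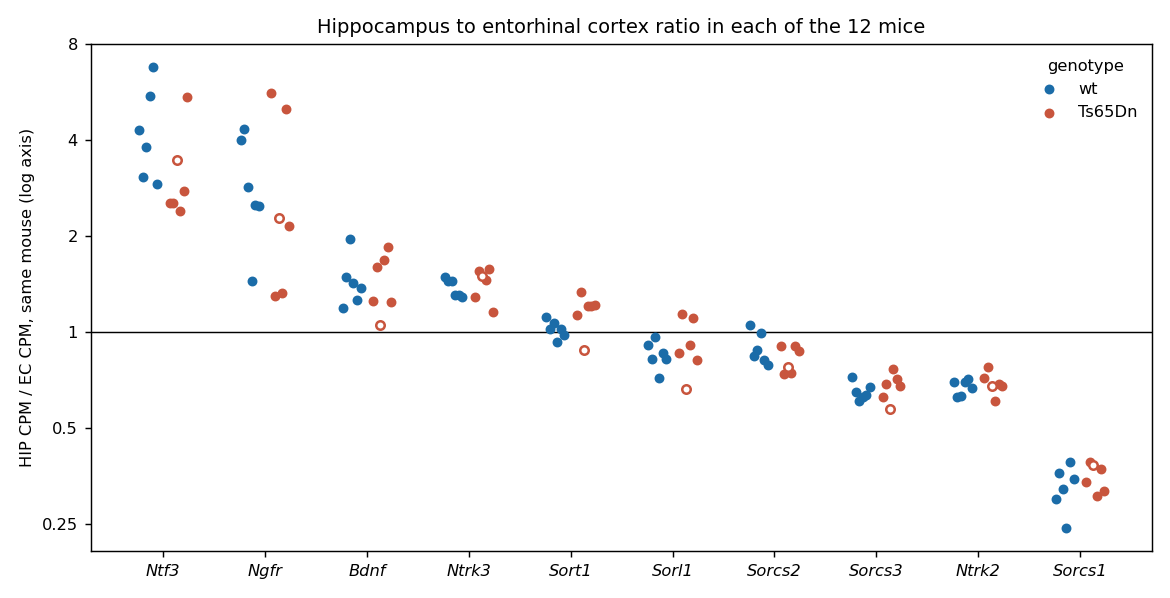
Ratio of the HIP level to the EC level of the same mouse (vertical log axis) for the 6 genes and for 4 sortilin relatives, with 1 point per mouse, coloured by genotype, and open points for the mouse labelled Ts65Dn replicate 3. All 12 points lie above 1 for Ntf3, Ngfr, Bdnf and Ntrk3, and all 12 below 1 for Ntrk2, Sorcs1 and Sorcs3.

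The 4 sortilin relatives were, unlike Sort1, all lower in HIP. Sorcs1 fell by 1.57 on the log2 scale (SE 0.053), from 47.1 to 63.7 CPM in EC to 14.4 to 21.6 CPM in HIP, and Sorcs3 by 0.60 (SE 0.035). Sorcs2, which also binds BDNF precursors, fell by 0.23 (SE 0.043), and Sorl1 by 0.20 (SE 0.057, adjusted p = 0.00553), the latter in 10 of 12 mice. For Sorl1 the difference did not pass in the Ts65Dn mice alone (-0.16, adjusted p = 0.184).

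The ligand gene Ntf5 was too low to test, with 1 to 26 counts per library. For genotype, none of the 4 sortilin relatives passed in either region with edgeR, and none was under 0.05 before adjustment.

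In the other 6 lists, which hold genes that process the precursors, act with the receptors or control Bdnf, the regional differences went both ways. Together with the list of relatives, 27 of the 97 genes tested of 100 were higher in HIP and 52 lower, so 81.4% passed, beside the 68.4% of all genes. Of all genes, 35.5% were higher and 32.9% lower, and the counts of each list below stand beside these shares. Among the enzymes and partners of precursor release, 4 of 13 were higher and 7 lower, with a median of -0.17 where the median of all genes was 0.0092. The convertases split. Pcsk6 (1.20) and Pcsk7 (0.53) were higher in HIP, while Pcsk1 fell by 1.09 and Pcsk2 by 0.72. Both of the latter work in dense-core vesicles of neurons. Of the tissue-plasminogen activator system, which can cleave the BDNF precursor through plasmin, Plat was 0.18 higher and its inhibitor Serpini1 fell by 0.62.

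Among the 18 Trk adaptors and co-receptors 5 were higher and 5 lower, with a median of -0.0090. Gab1 (1.14) and Ptpn11 (0.30), which both act below Trk receptors, had the largest positive differences, and Shc3 (-1.09) and Sh2b2 (-1.04) the largest negative ones. Of the 12 Ngfr partners 6 were higher, led by the kinase Ripk2 (0.56) and the ubiquitin ligase Traf6 (0.42), and 5 were lower, led by the co-receptor Lingo1 (-0.96) and by Bex1 (-0.65). Of the 25 genes of the Ras-MAPK and PI3K-Akt cascades 7 were higher, among them Rps6ka5 (0.31), and 15 lower, led by Rps6ka2 (-1.36) and Mapk3 (-0.86). These values are log2 fold changes, HIP minus EC.

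Of 12 regulators of Bdnf transcription 4 were higher in HIP and 6 lower, with a median of -0.070. The repressor Rest (1.05) and the CREB coactivator Crtc2 (0.52) were the highest, and Mef2c (-2.41) and the activity-induced factor Npas4 (-1.19) the lowest. Creb1 itself gave -0.046 (adjusted p = 0.352). Of 12 activity-induced genes, 0 were higher in HIP and 10 lower, beside 35.5% and 32.9% of all genes, with a median of -1.01. Egr2 (-2.15) and Fos (-1.32) led, and Arc gave 0.12 (adjusted p = 0.566). Bdnf was higher in the region in which most of these activity-induced genes were lower. Over the 12 EC libraries its Pearson correlations with them were all positive, from 0.072 (Nptx2) to 0.57 (Dusp6). Over the 12 HIP libraries they ran from -0.165 (Arc) to 0.51 (Homer1). These correlations were not tested.

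**Figure D4:**
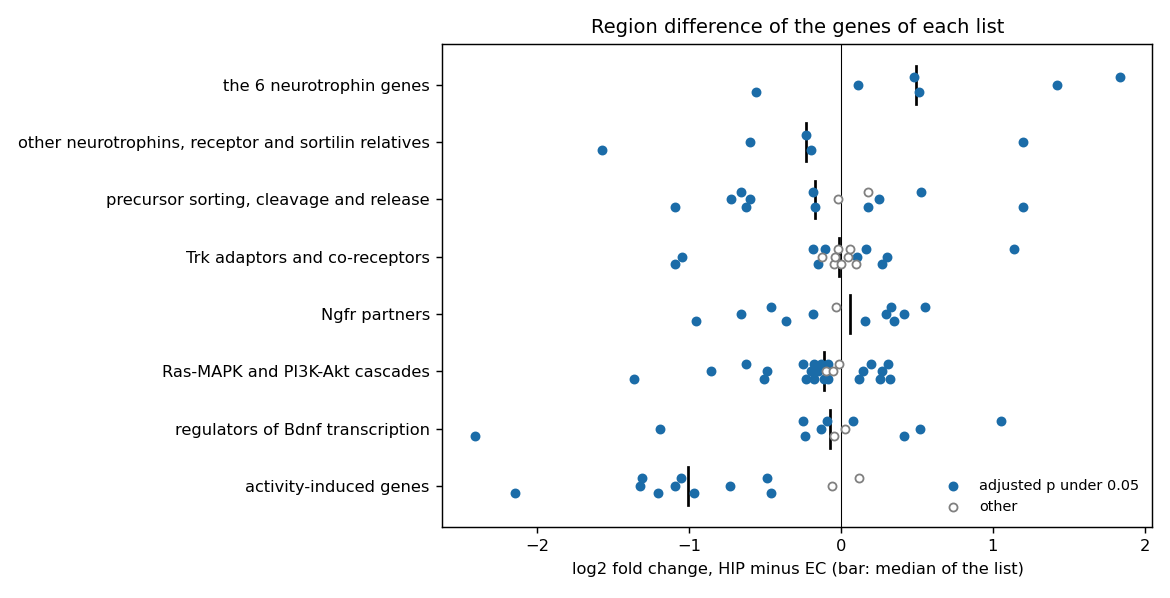
Log2 fold change, HIP minus EC (horizontal axis), of the 6 genes and of the 97 tested genes of 7 lists. Each point is a gene, filled where the adjusted p was under 0.05, and the vertical bars are list medians. The activity-induced genes lie furthest to the left with a median of -1.01, while 5 of the 6 neurotrophin genes lie to the right of 0.

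For genotype, 1 of the 97 listed genes passed in HIP (1.03%, beside 1.04% of all genes) and 5 in EC (5.15%, beside 2.5%). Tiam1, which encodes a Rac exchange factor that Trk receptors recruit and which lies in the extra segment of chromosome 16, was higher in Ts65Dn mice by 0.43 in HIP (adjusted p = 0.0367) and by 0.61 in EC (adjusted p = 0.0455). In EC the kinase gene Rps6ka2, in the extra segment of chromosome 17, was higher by 0.49 (adjusted p = 0.0270). Rps6ka3 (-0.26, adjusted p = 0.0408) and Mef2c (-0.32, adjusted p = 0.0226) were lower in EC. None of these calls held in every fit that left out a single mouse. Tiam1 passed in 1 of 12 such fits in HIP and 2 of 12 in EC, Rps6ka2 in 8, Mef2c in 6 and Rps6ka3 in 2. Without the mouse labelled Ts65Dn replicate 3, Tiam1 passed in HIP (0.50, adjusted p = 0.000591) and in EC (0.73, adjusted p = 0.00186). In EC, Rps6ka2 (0.55, adjusted p = 0.00608) and Mef2c (-0.31, adjusted p = 0.0302) also passed, and Rps6ka3 gave -0.24 (adjusted p = 0.0584). Irak1, a partner of Ngfr, passed in HIP (-0.24, adjusted p = 0.0374).

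The genes whose levels varied most like each of the 6 were found over 16592 genes, by the mean of the Pearson correlations of log2 CPM over the 12 HIP and over the 12 EC libraries. For Bdnf they were Stxbp5 (0.818), Rab6a (0.812) and Zfp804a (0.802), and for Ntf3 they were Arpc5 (0.776), Sybu (0.754) and Tbc1d16 (0.735). For Ntrk2 they were Canx (0.765), Tgoln1 (0.747) and the astrocyte glutamate transporter gene Slc1a2 (0.738). Ntrk3 had the highest values, with the antisense RNA B230334C09Rik (0.906), the NMDA receptor gene Grin2b (0.858) and 4932438A13Rik (0.853). For Ngfr they were Klhl14 (0.788), Trpa1 (0.729) and Fam186b (0.712), and for Sort1 they were Chn1 (0.834), Dock4 (0.824) and Necap1 (0.821). These are descriptions over libraries that also share depth, dissection and genotype. Without the libraries labelled Ts65Dn replicate 3 7 of these 18 genes were still among the 3 nearest to their member. Those of Bdnf took ranks 13, 10 and 9 with values of 0.764 to 0.771, and Arpc5 took rank 18 for Ntf3 with 0.653. All 3 of Ngfr kept their place among the nearest. Between the 6 genes themselves the highest mean value was 0.498, for Bdnf and Ntrk3, with 0.594 in HIP and 0.402 in EC. Within a single region the highest was 0.931, for Ntrk2 and Sort1 in EC. In HIP that pair gave -0.332, so its mean was 0.2995.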

How the data were processed

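Single-end RNA-Seq reads were aligned by the authors with Hisat2 to GRCm38 and counted per Ensembl gene with HTSeq. The deposited table holds these raw counts, without normalization, and all 24 columns were used. The other deposited tables hold the authors' own fold changes and p-values and were not used. The labels name a poly-A kit and the methods a ribosomal-depletion kit, both stranded, and the strand setting of the counting is not given in the sources used here.

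The members and gene lists were chosen with earlier results of these data known. Gene positions and lengths came from GENCODE vM21, and promoter windows from RefSeq. Counts were tested with edgeR 4.0.16 (filterByExpr, TMM, quasi-likelihood test, Benjamini-Hochberg adjusted p under 0.05), by genotype in each region (6 against 6), by region and for the interaction, both with a term for each mouse. CPM used TMM library sizes, and log2 CPM a prior count of 2. Levels per kilobase used the union of exons. Intervals are 95% and come from the fits. HIP and EC libraries of the same mouse deviated together (r = 0.178 to 0.426, 6 of 6 nearest to their own mouse in each genotype). The pairing of regions comes from the animal numbers in the labels. Correlations used 100000 permutations, two-sided. Alternatives were DESeq2 1.42.0, its size factors, other filters, each mouse left out, a replicate block or none, each genotype alone, and another length. Named genes were the 6 members and their relatives, and some genes that the rule names are not reported here. In each other list they were the genes called for genotype and the 2 largest positive and negative called regional differences, besides the 3 nearest genes of each member. Creb1, Arc, Plat, Serpini1, Irak1 and the single astrocyte markers were added after their values were seen. Scripts were tested on simulated data. For Ntf3 and Ngfr in EC the spread from counting alone is given beside that observed. The p-values for genotype measure the spread between these 6 mice per group. Those for region and for the interaction measure the spread of the regional differences within mice.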

Additional observations from a re-analysis of the deposited data

How the results depend on the processing

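No member passed the genotype test, or the test of the interaction, in any alternative, and Bdnf, Ntf3, Ntrk2, Ntrk3 and Ngfr passed the regional test with the same direction in all 19. Sort1 passed it in 5 of 12 fits without a single mouse (0.089 to 0.14, adjusted p 0.00863 to 0.119), not in those without Ts65Dn replicate 1, 2, 4, 5 or 6 or wt replicate 1 or 3, and its other values were 0.11 with DESeq2, 0.11 with DESeq2 size factors (adjusted p = 0.0553) and 0.024 in wt mice only.

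Genotype values near 0 changed sign when a single mouse was left out. Bdnf ran from -0.22 to 0.026 and Ntrk3 from -0.070 to 0.036 in HIP, and Ngfr from -0.057 to 0.27 in EC. The interaction of Bdnf ran from -0.074 to 0.079, and was 0.0345 with no replicate block. With the longest transcript as length, Ntrk3 took place 3 and Bdnf place 4 in wt HIP and wt EC. Ngfr in EC has no adjusted p by DESeq2.

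The number of genes called for genotype in HIP, 181, became 589 with DESeq2, 29 with a replicate block and 54 (Ts65Dn replicate 6) to 318 (Ts65Dn replicate 3) without a single mouse. In EC, 426 became 1098 with DESeq2, 275 with no filter on low counts, 36 with a replicate block and 90 (Ts65Dn replicate 1) to 685 (Ts65Dn replicate 6) without a single mouse. For the interaction 37 genes were called with no filter. Mice of different genotype share only a number, and 1 of 6 libraries correlated best with its own number in either region. The causes were not tested.

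Leaving out both libraries labelled Ts65Dn replicate 3 from the likeness values was chosen after seeing the data, and 7 of the 18 nearest genes were then still among the 3 nearest.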
